A study of Drosophila melanogaster with 21 samples.

Results

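The genes described here are the Hippo pathway growth control genes yki, hpo, wts, mats, sav, ex, kibra, ft, ds and fj, taken by name from a list of the core kinases of the pathway, its upstream cadherins and its regulators and target genes. Of these 10 genes, 9 were matched by FlyBase identifier to a row among the 17558 genes of the count table, and ds had no matched row and is not analysed here. The measurements are sequenced polyadenylated RNA of wing imaginal discs, the larval epithelia that form the adult wings, from male Drosophila melanogaster in the third larval instar. The study asks what the loss of the MSL complex, which raises transcription of the single X of males, does to gene expression. The mutant males were homozygous for msl-2.227 (4 libraries), msl-1.L60 (3 libraries) or mle.9 (3 libraries), or carried roX1.SMC17A together with roX2delta on the X (3 libraries), and the labels call each of these a null mutant. The control males carried 1 copy of msl-2.227 (3 libraries), of msl-1.L60 (3 libraries) or of mle.9 (2 libraries) over CyO-GFP, a balancer form of chromosome 2 with a GFP marker. The labels give no age in hours and do not say whether the libraries of a group came from separate dissections, so the p values measure only the spread between these libraries.

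The Hippo pathway is a kinase cascade that limits organ growth. The kinase Hippo (hpo), held by the scaffold Salvador (sav), activates the kinase Warts (wts) with its cofactor Mats (mats), and Warts phosphorylates the coactivator Yorkie (yki) and so keeps it out of the nucleus. Expanded (ex) and Kibra (kibra) activate the cascade at the apical cell membrane, and the giant cadherin Fat (ft), with its ligand Dachsous (ds) and the Golgi kinase Four-jointed (fj) that modifies both, acts on Warts and on Expanded. In wing discs Yorkie, with the DNA-binding partner Scalloped, drives growth and survival genes, and ex, kibra and fj are themselves known to respond to Yorkie.

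Total counts ran from 1388848 to 4131600 in 20 libraries, while msl-1 heterozygous replicate 2 held 830905 counts, 6.17% of them mitochondrial, and had a median correlation of 0.555 with the other libraries of its group. That library was left out of the tests given first (20 libraries, 10367 genes tested with edgeR's quasi-likelihood test, called at a Benjamini-Hochberg adjusted p under 0.05), and results that change in the fit of all 21 libraries (11420 genes) are given with it. Its fj level, for example, was 97.6 CPM (counts scaled by the TMM-adjusted size of each library), against 344.6 to 840.2 CPM in the other 20. In the roX1 roX2 libraries roX1 stood at 35.9 to 67.8 CPM, against 2470 to 3648 CPM in the 7 heterozygous libraries kept, and msl-2 stood at 49.6 to 60.4 CPM in msl-2 mutants, against 89.4 to 105 CPM in their heterozygotes. The transcripts of msl-1 and mle were not lower in their own mutants (msl-1 127.9 ± 18.4 CPM, SD, n = 3, against 82.7 ± 38.6 CPM, SD, n = 2; mle 226 ± 12.6 CPM, SD, n = 3, against 139.7 ± 4.59 CPM, SD, n = 2), so their levels do not check those 2 labels, although roX1 stood at 60.5 to 133.8 CPM in both. The tissue markers vg, nub, sd, en and salm of wing discs were detected in every library. All 5 were called lower in msl-1 mutants and 3 in mle mutants, where 12.7% and 8.95% of all genes were. With all 21 libraries 2 and 0 were. Their summed level was 725 to 791 CPM in msl-1 mutants against 1480 and 1569 CPM in the heterozygotes kept. All 9 genes are autosomal, and yki, hpo, ex, ft and fj lie on chromosome 2, as do msl-2, msl-1 and mle. Homozygotes and CyO-GFP heterozygotes can therefore differ along chromosome 2 by more than the MSL gene, and for those 5 genes an effect of linked variants cannot be told apart from one of the mutation. The controls carried CyO-GFP and the homozygotes did not. For all 9 genes, an effect of the balancer thus cannot be told apart from one of the mutation either. In roX1 roX2 mutants, set against heterozygotes of other stocks, stock and mutation cannot be told apart for any of the 9 genes.

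Per length of exon, the 9 genes spanned a wide range of levels in heterozygous discs, all of them detected in every library. fj, a single-exon gene at 2R:18232761-18236311 (plus strand, dm6), had the highest median at 136 CPM per kb, followed by yki at 92.2 CPM per kb. mats stood at 50.7 CPM per kb, hpo at 35.7 CPM per kb, ft at 33.0 CPM per kb and sav at 20.4 CPM per kb. kibra at 14.7 CPM per kb, ex at 8.53 CPM per kb and wts at 7.50 CPM per kb were the lowest. Of the neighbours in this order, the libraries of ft and sav did not overlap, while those of each other pair of neighbours did. The effector and the cadherin kinase thus stood above the upstream activator ex and the kinase wts in each of the 7 libraries. Over the 20 libraries the depth was 38 to 272 counts per library for ex and 40 to 178 counts for wts, and 896 to 2086 counts for fj.

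**Figure D1:**
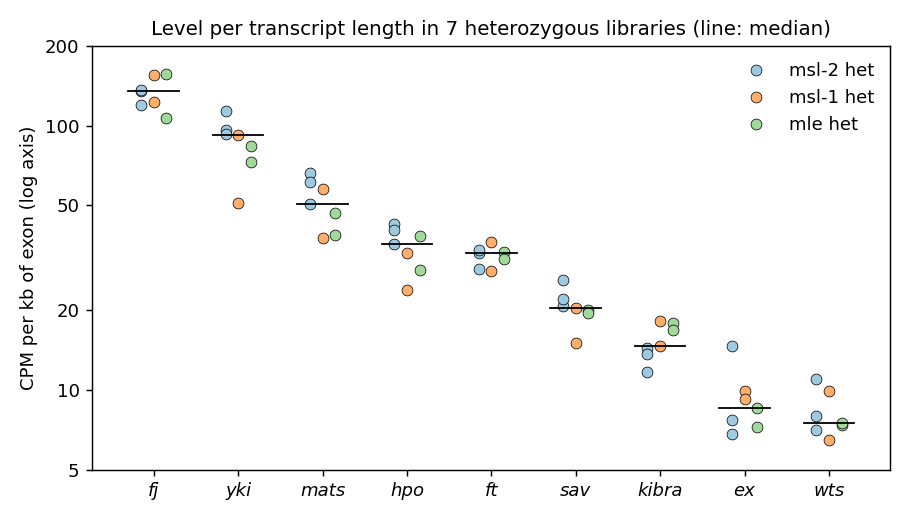
Level of each gene per kb of exon (CPM per kb, log axis) in 7 heterozygous libraries, 1 dot per library coloured by stock, with the median as a line. fj (median 136 CPM per kb) and yki (92.2) are the highest, and ex (8.53) and wts (7.50) the lowest, with their dots overlapping.

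Few of the 9 genes passed the test in any mutant. In msl-2 mutants 1 of 9 was called, mats, which was lower, where 3.07% of all genes tested were called higher and 7.59% lower. In msl-1 mutants fj and hpo were called higher and ex lower, where 10.4% of all genes were called higher and 12.7% lower. In mle mutants none of the 9 was called by edgeR or DESeq2, and 1 had an unadjusted p under 0.05, where 4.06% of all genes were called higher and 8.95% lower. The roX1 roX2 mutants have no heterozygotes of their own and were set against the mean of the 3 heterozygous groups, so they share controls with the other comparisons. There none was called by edgeR and 1 (kibra) by DESeq2, where 6.81% of all genes were called higher and 7.55% lower. With 9 genes, 1 gene more or less moves such a count past these background shares, so the counts are not read as particular to the pathway. The median log2 fold change over the 9 genes was -0.07 with the msl-2 mutation, where that over all genes was -0.0034, and 0.08 with the msl-1 mutation, where that over all genes was -0.12. It was 0.08 in mle mutants against -0.05 over all genes, and -0.02 in roX1 roX2 mutants against -0.03. With all 21 libraries the median of the 9 in msl-1 mutants was 0.39, against -0.17 over all genes. With all 21 libraries the counts of called genes were 0, 4, 0 and 0 in the same order, where 1.21%, 38.2%, 3.36% and 5.33% of all genes were called in either direction.

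**Figure D2:**
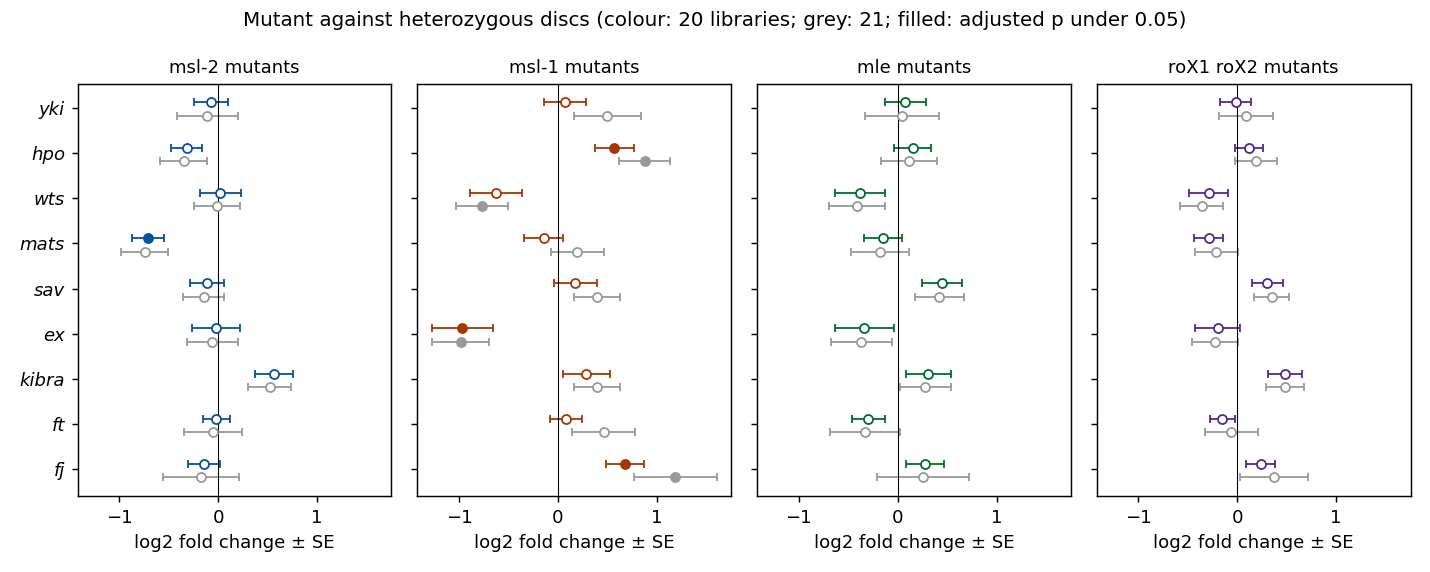
Log2 fold change of each of the 9 genes (rows) with its standard error, in each mutant against heterozygous discs, from 20 libraries (colour) and from all 21 (grey). Filled points mark an adjusted p under 0.05: mats in msl-2 mutants and hpo, ex and fj in msl-1 mutants from 20 libraries, and hpo, wts, ex and fj in msl-1 mutants from 21.

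Among the core cascade genes, mats was the gene that fell in msl-2 mutants. mats (3R:22421161-22423302, plus strand), which encodes the Mob family cofactor of Warts, stood at 113, 105 and 87.0 CPM in the msl-2 heterozygotes and at 57.6, 57.8, 59.3 and 73.8 CPM in the msl-2 mutants. The 2 groups did not overlap, and the mutants were at 61.2% of their controls (log2 fold change -0.71 ± 0.16, SE; adjusted p = 0.00607). The call held when any 1 of the 7 libraries of these groups was left out, with a log2 fold change between -0.83 and -0.64, but was lost in the fit of all 21 libraries (log2 fold change -0.75, adjusted p = 0.165). In the other groups mats stood at 98.4 and 64.2 CPM in msl-1 heterozygotes, 67.9, 77.1 and 75.2 CPM in msl-1 mutants, 80.0 and 66.3 CPM in mle heterozygotes, 62.2, 67.7 and 68.2 CPM in mle mutants and 71.6, 81.7 and 54.4 CPM in roX1 roX2 mutants. The msl-2 heterozygotes thus held the highest mean of the 7 groups (102 ± 13.5 CPM, SD, n = 3), although the range of each group overlapped that of the next in order. The difference of mle from msl-2 heterozygotes was -0.47 ± 0.19 for mats on the log2 scale and did not pass the test (adjusted p = 0.248). Against the msl-2 heterozygotes alone, mats was called lower in roX1 roX2 mutants too (log2 fold change -0.55, adjusted p = 0.0296), while against the mean of all 3 heterozygous groups it was not (-0.29 ± 0.15, adjusted p = 0.221).

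hpo, the kinase at the head of the cascade (2R:19493996-19496856, minus strand), was higher in msl-1 mutants. It stood at 92.4 and 67.1 CPM in the msl-1 heterozygotes and at 116, 126.0 and 112.5 CPM in the msl-1 mutants. The groups did not overlap (log2 fold change 0.57 ± 0.19, adjusted p = 0.0370; 0.88 ± 0.26, adjusted p = 0.0159, with all 21 libraries). The call was lost when any of the 3 mutant libraries was left out (adjusted p = 0.0675, 0.109 and 0.0615 without replicates 1, 2 and 3) and without heterozygous replicate 3 (log2 fold change 0.36, adjusted p = 0.425). In the msl-2 stock hpo pointed the other way without passing the test, at 119, 112.8 and 100.1 CPM in heterozygotes and 102.6, 90.0, 66.0 and 96.0 CPM in mutants (log2 fold change -0.32 ± 0.16, adjusted p = 0.180). The msl-1 mutants had the highest mean of hpo among the 7 groups (118 ± 6.95 CPM, SD, n = 3) and their heterozygotes the lowest (79.8 ± 17.9 CPM, SD, n = 2), and the msl-1 mutants overlapped the msl-2 heterozygotes. In mle and roX1 roX2 mutants the log2 fold changes of hpo were 0.15 and 0.12, neither called. Exons of hpo share 130 bp with Rep on the opposite strand, and reads from the 2 genes cannot be told apart there without the strand setting of the counting, which is not given in the sources used here.

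wts, the kinase that acts on Yorkie (3R:30789625-30806619, minus strand), had the lowest level per length and few reads. In msl-1 mutants it stood at 29.8, 34.5 and 27.9 CPM, below both heterozygous libraries kept, at 37.7 and 57.4 CPM. This difference did not pass the test in 20 libraries (log2 fold change -0.62 ± 0.27, adjusted p = 0.0928), and did in 21 (-0.76 ± 0.26, adjusted p = 0.0293), where the library added stood at 78.4 CPM. In mle mutants wts stood at 37.8, 22.8 and 38.9 CPM against 42.8 and 43.5 CPM in heterozygotes, without overlap and without passing the test (log2 fold change -0.38 ± 0.25, adjusted p = 0.406). Its log2 fold change was -0.29 in roX1 roX2 mutants and 0.02 in msl-2 mutants, at 38.0 to 64.2 CPM against 40.9 to 63.9 CPM. In mle and in msl-1 mutants 4 of the 9 genes did not overlap their controls. Groups of 3 and 2 libraries can fail to overlap by chance, and the share over all genes was not computed. Lack of overlap alone is therefore not read as a difference for any gene here.

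sav, the scaffold that joins Hippo and Warts (3R:23058609-23061304, minus strand), was not called in any mutant. Its largest difference was in mle mutants, at 69.4, 54.1 and 58.7 CPM against 44.7 and 43.9 CPM in heterozygotes, without overlap (log2 fold change 0.45 ± 0.20, unadjusted p = 0.0372 and adjusted p = 0.167, both from edgeR). The roX1 roX2 mutants stood at 53.4, 58.4 and 54.9 CPM for sav, inside the 33.6 to 58.3 CPM of the heterozygotes apart from 1 library just above. Its log2 fold changes were -0.11 in msl-2 and 0.18 in msl-1 mutants. Exons of sav share 73 bp with Ctns on the same strand.

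yki, the coactivator that carries the output of the pathway (2R:24065975-24068485, minus strand), was not called in any mutant. It stood at 137, 123, 159 and 164 CPM in msl-2 mutants against 173, 146 and 142 CPM in their heterozygotes, and at 111, 119 and 114.8 CPM in msl-1 mutants against 140.6 and 77.8 CPM. In mle mutants it stood at 116, 126 and 135 CPM against 127 and 111 CPM, and in roX1 roX2 mutants at 157, 102 and 112 CPM. The groups overlapped in all 4 comparisons, the log2 fold changes lay between -0.07 and 0.08 in 20 libraries, and no adjusted p was below 0.804. In msl-1 mutants the value changed with the control libraries used. It was 0.50 ± 0.34 with all 21 libraries (adjusted p = 0.233), 0.60 without heterozygous replicate 1 (adjusted p = 0.0746) and -0.29 without heterozygous replicate 3. In 20 libraries the standard errors of 0.16 to 0.21 set what could be seen at this depth. The 2 msl-1 heterozygous libraries differed from each other for yki more than any mutant differed from its controls. The values are of messenger RNA, and Yorkie is regulated by phosphorylation, which this assay does not measure.

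**Figure D3:**
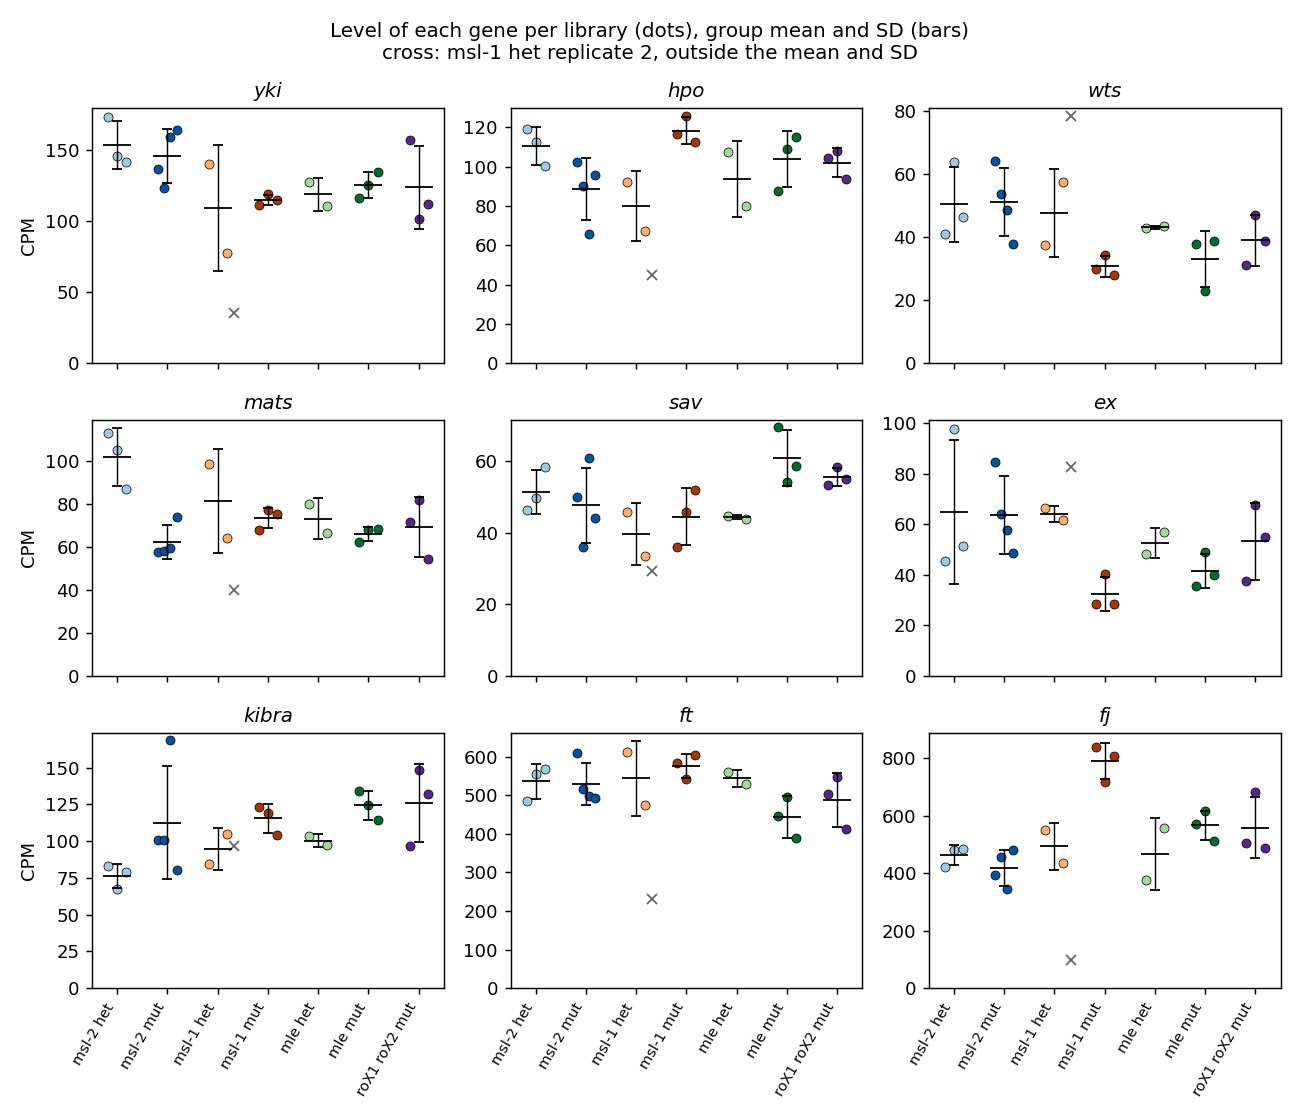
Level of each of the 9 genes (CPM) in every library, 1 dot per library, with the mean and SD of each group, and a cross for msl-1 heterozygous replicate 2, which is outside the mean and SD. mats is highest in msl-2 heterozygotes, fj is highest in msl-1 mutants, where its 3 dots (719 to 840 CPM) lie above those of all other groups, and the groups of yki overlap in each comparison.

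Of the 2 apical activators, ex fell in msl-1 mutants, and kibra had a positive log2 fold change in all 4 mutants without passing the test in any. ex (2L:431227-448701, plus strand), a FERM domain protein that is also a known target of Yorkie, stood at 66.3 and 61.8 CPM in the msl-1 heterozygotes and at 28.4, 40.4 and 28.4 CPM in the msl-1 mutants. The groups did not overlap, and the mutants were at 51.1% of their controls (log2 fold change -0.97 ± 0.31, adjusted p = 0.0283). The call was lost without mutant replicate 1 or 3 or without heterozygous replicate 1 or 3, with adjusted p between 0.0831 and 0.111 and a log2 fold change between -1.02 and -0.87. In the mle stock ex stood at 35.5, 49.1 and 39.9 CPM in mutants and 48.4 and 56.9 CPM in heterozygotes (log2 fold change -0.34 ± 0.30, adjusted p = 0.562). In msl-2 discs it varied widely within groups, at 84.9, 63.9, 57.9 and 48.5 CPM in mutants and 45.5, 97.7 and 51.6 CPM in heterozygotes, and the log2 fold change was -0.03. The 3 roX1 roX2 libraries of ex stood at 37.4, 67.7 and 54.9 CPM (log2 fold change -0.20). Exons of ex share 448 bp with crq on the opposite strand.

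kibra (3R:14697689-14724261, minus strand), a WW domain protein that works with Expanded and Merlin, stood at 83.1, 67.2 and 78.7 CPM in msl-2 heterozygotes and 100.7, 100.6, 169 and 80.5 CPM in msl-2 mutants. Mutant replicate 4 lay inside the range of the heterozygotes and replicate 3 far above the rest (log2 fold change 0.56 ± 0.19, adjusted p = 0.0623). The roX1 roX2 mutants stood at 96.9, 148 and 132 CPM for kibra, against 67.2 to 104.6 CPM in the 7 heterozygous libraries (0.48 ± 0.17, adjusted p = 0.0615). In mle mutants kibra stood at 134, 125 and 114.5 CPM against 103 and 97.1 CPM, without overlap (0.31 ± 0.23, adjusted p = 0.459), and in msl-1 mutants at 123, 119 and 104 CPM against 84.4 and 105 CPM (0.29 ± 0.23, adjusted p = 0.386). The calls for kibra turn on the setting: it was called higher in msl-2 mutants without mutant replicate 4 (0.69, adjusted p = 0.0228) and by DESeq2 (adjusted p = 0.0374), and in roX1 roX2 mutants without mutant replicate 2 (0.64, adjusted p = 0.0251), by DESeq2 (adjusted p = 0.0449) and against the msl-2 heterozygotes alone (0.71, adjusted p = 0.0198). The msl-2 heterozygotes had the lowest mean of kibra among the 7 groups (76.3 ± 8.23 CPM, SD, n = 3), without overlap with the other heterozygous groups. Neither difference passed edgeR's test. The log2 difference from msl-2 heterozygotes was 0.31 ± 0.23 for msl-1 (adjusted p = 0.360) and 0.39 ± 0.23 for mle heterozygotes (adjusted p = 0.381).

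In the cadherin branch, fj rose in msl-1 mutants while ft was not called in any mutant. fj, the Golgi kinase that phosphorylates the cadherin domains of Fat and Dachsous and is normally graded along the proximal-distal axis of the wing, stood at 551 and 436 CPM in msl-1 heterozygotes and at 840.2, 719 and 808 CPM in msl-1 mutants. All 3 mutant libraries were above all 17 others kept, and the mutants were at 160% of their controls (log2 fold change 0.68 ± 0.20, adjusted p = 0.0147). The call was kept in each of the alternatives tried except the one without heterozygous replicate 3, where it was lost (0.52, adjusted p = 0.197), and in 21 libraries the log2 fold change was 1.19 ± 0.42 (adjusted p = 0.0335). In mle mutants fj stood at 572, 615 and 514 CPM against 378 and 557 CPM in heterozygotes (0.28 ± 0.19, adjusted p = 0.424). The roX1 roX2 mutants stood at 506, 682 and 488 CPM for fj (0.24 ± 0.14, adjusted p = 0.324), and in msl-2 mutants at 392, 458, 345 and 482 CPM against 423, 481 and 484 CPM (-0.14 ± 0.16, adjusted p = 0.573). fj was thus numerically higher in 3 mutants and lower in 1, with a call in msl-1 mutants alone.

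ft (2L:4198404-4221796, minus strand), the receptor of the branch, ran from 389 to 614 CPM over 20 libraries, the smallest ratio of highest to lowest level among the 9 genes (1.58). It stood at 448, 495 and 389 CPM in mle mutants against 559 and 529 CPM in their heterozygotes, without overlap (log2 fold change -0.29 ± 0.16, adjusted p = 0.289). The log2 fold changes in msl-2, msl-1 and roX1 roX2 mutants were -0.02, 0.08 and -0.15. In msl-1 mutants ft stood at 583, 542 and 604 CPM, so that within the same 3 libraries fj was called higher and ft was not.

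Of the 9 genes 5 lie on chromosome 2, among them the 3 called in msl-1 mutants in 20 libraries, while wts, called there with all 21, lies on chromosome 3. The shares of all genes called on chromosomes 2 and 3 were not computed. This count is therefore not read as an effect of linkage, which was not tested. Leaving out msl-1 heterozygous replicate 3 left none of the 9 genes called in msl-1 mutants by edgeR, with 1 control library remaining that is assumed to vary like the other groups. That library and msl-1 heterozygous replicate 1 differed for yki, mats and hpo, at 77.8 and 140.6 CPM, 64.2 and 98.4 CPM, and 67.1 and 92.4 CPM.

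In 20 libraries hpo and fj passed the test of the difference between the msl-1 and msl-2 mutant effects. The mutant effect on hpo was higher in msl-1 than in msl-2 by 0.89 ± 0.25 on the log2 scale (adjusted p = 0.0224), and that on fj by 0.82 ± 0.25 (adjusted p = 0.0326), where 15.1% of all genes differed between these stocks. With 21 libraries hpo alone was called (1.23, adjusted p = 0.0215; fj 1.36 ± 0.57, adjusted p = 0.0757), where 26.3% of all genes were. Both calls were lost without msl-1 heterozygous replicate 3 (hpo 0.69, adjusted p = 0.211; fj 0.68, adjusted p = 0.212) and without msl-1 mutant replicate 2 (adjusted p = 0.0587 for hpo and 0.0505 for fj). Without msl-2 heterozygous replicate 1 the call of hpo was lost (adjusted p = 0.0527), and fj lost its call without msl-2 heterozygous replicate 2, msl-2 mutant replicate 3 or msl-1 mutant replicate 1 (adjusted p = 0.0523, 0.0645 and 0.0671). For ex and mats the differences of -0.94 ± 0.39 and 0.57 ± 0.25 did not pass (adjusted p = 0.0978 and 0.117), and so the effects on ex and mats are not shown to differ between the stocks. They passed with 1 library left out each, ex without msl-2 heterozygous replicate 2 (-1.33, adjusted p = 0.0186) and mats without msl-1 heterozygous replicate 1 (0.96, adjusted p = 0.0205).

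None of the 9 genes differed between the msl-1 and mle effects (0 with an unadjusted p under 0.05, and 0.511% of all genes called) or between the mle and msl-2 effects (2 with an unadjusted p under 0.05, mats and sav, and 0.241% of all genes called), by edgeR. The heterozygous groups were compared in the same way, since they serve as the controls. By edgeR no gene of the 9 was called between msl-1 and msl-2 heterozygotes in 20 libraries (2 with an unadjusted p under 0.05, yki and hpo), where 10.4% of all genes were called. In 21 libraries yki, mats, sav and hpo were called lower in msl-1 heterozygotes, where 42.4% of all genes were called in either direction. By edgeR 0 were called between msl-1 and mle heterozygotes (0 with an unadjusted p under 0.05, and 0.203% of all genes called) and 0 between mle and msl-2 heterozygotes (1 with an unadjusted p under 0.05, mats, and 0.772% of all genes called).

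Across the 20 libraries wts and ex rose and fell together most closely of all pairs, with a Pearson r of log2 CPM of 0.776. The lowest r was that of wts with fj (-0.616), then mats with kibra (-0.611) and ex with fj (-0.536). These values describe 20 libraries that share groups, stocks and scaling, and no p is given.

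**Figure D4:**
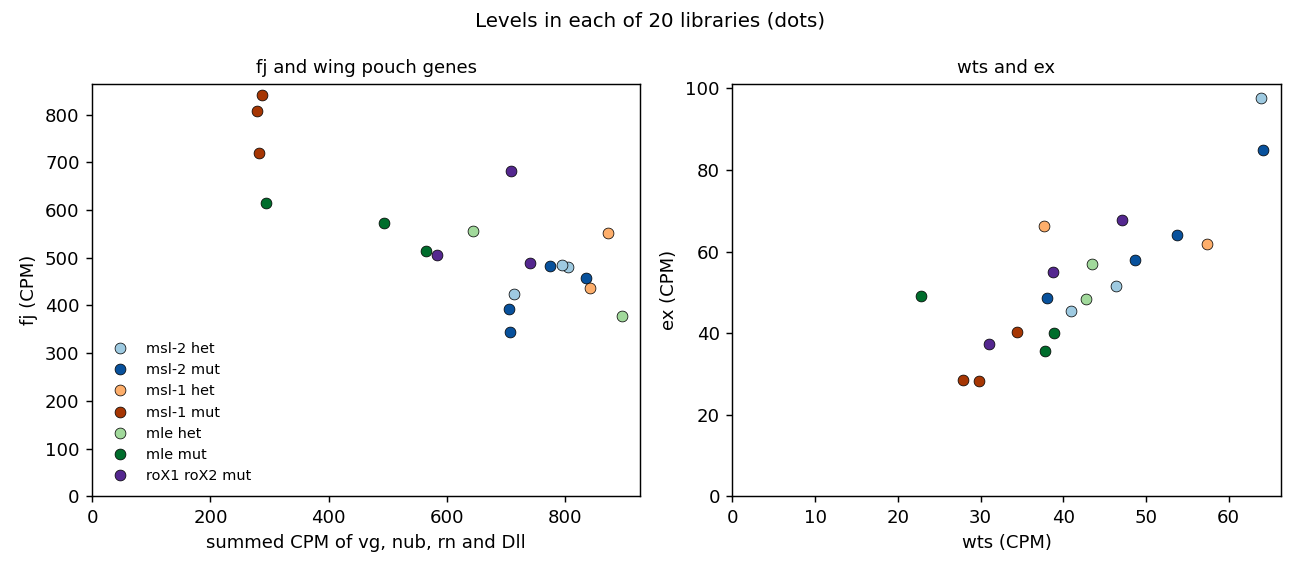
Levels in each of 20 libraries, 1 dot per library coloured by group: fj against the summed level of the wing pouch genes vg, nub, rn and Dll (left), and ex against wts (right), all in CPM. The 3 msl-1 mutant libraries lie at the lowest pouch levels (278.6 to 286.5 CPM) with the highest fj levels (719 to 840 CPM), and wts and ex increase together (r = 0.776 on the log2 scale).

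Beyond the 9 genes, 51 further genes of the pathway were measured and tested: apical and polarity regulators, the rest of the cadherin branch, inhibitors of the kinases, partners of Yorkie and targets of Yorkie. Split by chromosome, a split made after values were seen, 8 of the 51 are X-linked, and X-linked genes are the direct targets of the MSL complex. None of the 8 was called higher in any mutant. In mle mutants 6 of the 8 were called lower (Mer, par-6, dlg1, Tao, sd and jub), with a median log2 fold change of -0.58 over the 8, where 35.9% of all X-linked genes were called lower. In msl-2 mutants jub, par-6 and Tao were lower (3 of 8, median -0.20), where 24.7% of X-linked genes were. In msl-1 mutants dlg1, par-6 and sd were lower (3 of 8, median -0.19), where 25.3% were, and in roX1 roX2 mutants 2 were lower (par-6 and Mer; median -0.27) where 25.8% were. In 21 libraries Mer was called lower in mle and dlg1 in msl-1 mutants, and no other call of these 8 remained. In msl-1 mutants the median over the 8 was then 0.0016, with par-6 at -0.15 and sd at -0.36.

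par-6, a subunit of the apical polarity complex with aPKC, was called lower in all 4 mutants in 20 libraries, and in none with all 21 (adjusted p = 0.752 in msl-1 mutants). It stood at 101.8 to 116.5 CPM in msl-2 mutants against 148.7 to 161 CPM in their heterozygotes (log2 fold change -0.48 ± 0.13, adjusted p = 0.0211). In msl-1 mutants par-6 stood at 80.8 to 93.4 CPM against 110.9 to 158 CPM (-0.63, adjusted p = 0.00594), in mle mutants at 86.6 to 104 CPM against 133 to 163 CPM (-0.64, adjusted p = 0.00624), and in roX1 roX2 mutants at 85.7 to 99.8 CPM (-0.64, adjusted p = 0.000907). In each of these comparisons the groups did not overlap.

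sd encodes Scalloped, the DNA-binding partner of Yorkie. It stood at 348 to 385 CPM in msl-1 mutants against 538 and 649.5 CPM in heterozygotes (-0.70 ± 0.17, adjusted p = 0.00502) and at 321 to 403 CPM in mle mutants against 535 and 618 CPM (-0.63 ± 0.17, adjusted p = 0.0142). sd was not called in msl-2 (-0.17) or roX1 roX2 mutants (-0.36, adjusted p = 0.0757). The messenger RNA of yki, its coactivator, was not called in any mutant. Mer encodes Merlin, the partner of Expanded and Kibra, and was lower in mle mutants, at 30.0 to 31.5 CPM against 55.3 and 56.2 CPM (-0.85 ± 0.16, adjusted p = 0.000849), and in roX1 roX2 mutants (-0.39, adjusted p = 0.0437). Tao, the kinase that activates Hippo, was lower in msl-2 (-0.45, adjusted p = 0.0210) and mle mutants (-0.53, adjusted p = 0.0142). jub encodes Ajuba, an inhibitor of Warts, and was lower in msl-2 (-0.69 ± 0.13, adjusted p = 0.00209) and mle mutants (-0.47, adjusted p = 0.0461). dlg1, a basolateral polarity scaffold, fell furthest of the 8 in msl-1 mutants, to 67.1 to 72.4 CPM from 181 and 196 CPM (-1.44 ± 0.16, adjusted p = 1.01e-06), and was lower in mle mutants too (-0.64, adjusted p = 0.00651). sdt and Myc were not called in any of the 4.

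**Figure D5:**
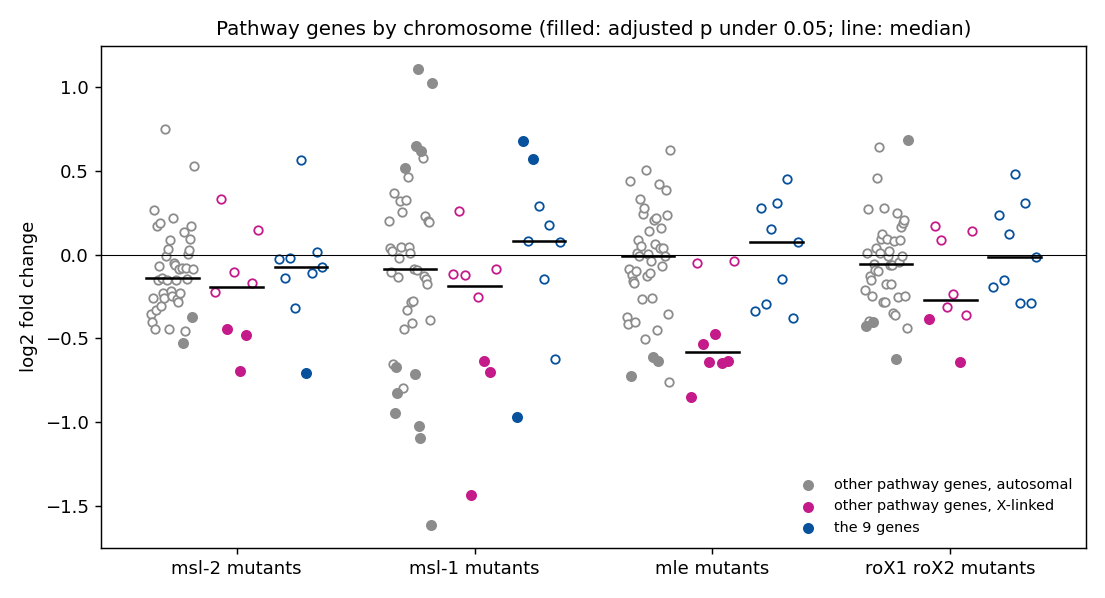
Log2 fold change of the other pathway genes, autosomal (grey) and X-linked (magenta), and of the 9 genes (blue), in each mutant against heterozygous discs, with the median of each set as a line and filled dots for an adjusted p under 0.05. The X-linked set has its lowest median in mle mutants (-0.58), where 6 of 8 are called lower, while the median of the 9 autosomal genes is 0.08 there. The median over all X-linked genes tested is -0.57 in mle mutants.

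Of the 43 other pathway genes off the X, the msl-1 mutants had 5 called higher and 7 lower, beside 10.4% and 12.7% of all genes, so these counts are not read as particular to the pathway. The msl-2 mutants had 2 lower (7.59% of all genes), the mle mutants 3 lower (8.95%) and the roX1 roX2 mutants 1 higher (6.81%) and 3 lower (7.55%). These shares again include X-linked genes, of which 24.7% to 35.9% were called lower, so the shares called lower off the X are smaller. hth, which encodes a homeodomain partner of Yorkie, was lower in all 4. Its log2 fold change was -0.53 with the msl-2 mutation (adjusted p = 0.0200) and -1.10 with the msl-1 mutation (adjusted p = 5.36e-05). It was -0.64 in mle mutants (adjusted p = 0.0125) and -0.63 in roX1 roX2 mutants (adjusted p = 0.00228). tsh, a zinc finger gene of the hinge that acts with hth, was lower in msl-2 mutants (-0.37, adjusted p = 0.0449). In 21 libraries hth and tsh were not called in any of these comparisons.

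In msl-1 mutants the glypicans dlp and dally, which bind secreted growth factors and are known targets of Yorkie, rose (dlp 1.11 ± 0.23, adjusted p = 0.00119; dally 0.65 ± 0.17, adjusted p = 0.00961), as did the EGF receptor ligand vn (1.03 ± 0.23, adjusted p = 0.00216). dlp stood at 252 to 284 CPM in the mutants against 108.5 and 136 CPM in the heterozygotes. l(2)gl, a basolateral polarity gene (0.62, adjusted p = 0.0129), and Slmap, a subunit of the phosphatase complex that opposes Hippo (0.52, adjusted p = 0.0409), also rose. The cell cycle factor E2f1 (-0.94 ± 0.16, adjusted p = 0.000141) and the wing selector vg, a partner of Scalloped (-1.61 ± 0.31, adjusted p = 0.00117), fell. So did, in the cadherin branch, dachs, the unconventional myosin that carries the Fat signal (-0.71 ± 0.18, adjusted p = 0.00735), Fbxl7 (-0.67, adjusted p = 0.0221) and Gug (-0.83, adjusted p = 0.000662), and the adhesion gene ed (-1.02, adjusted p = 0.00151). With all 21 libraries E2f1 (-0.52), dachs (-0.34), Fbxl7 (-0.49), Gug (-0.55), ed (-0.58) and hth (-0.65) were not called in msl-1 mutants, while vg, dlp, dally, vn, l(2)gl and Slmap were, dally at 1.06 and Slmap at 0.80. The listed targets of Yorkie did not move one way in msl-1 mutants: of the 10 outside the 9 genes, dlp, dally and vn were higher, vg and E2f1 lower, and the other 5 (Diap1, CycE, Myc, Mer and crb) not called. Of the genes off the X in mle mutants, dachs (-0.61, adjusted p = 0.0270) and the apoptosis inhibitor Diap1 (-0.72, adjusted p = 0.0466) were lower beside hth, and in roX1 roX2 mutants vn was higher (0.68, adjusted p = 0.00568) and Gug (-0.40, adjusted p = 0.0318) and 14-3-3zeta (-0.43, adjusted p = 0.0248) were lower beside hth. In 21 libraries no gene off the X of these lists was called in msl-2, mle or roX1 roX2 mutants, and 9 higher and 2 lower in msl-1 mutants.

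Several marker sets moved in the same libraries as the changes above, and their part in them was not tested. In bulk discs, fewer cells of a type and less RNA per cell cannot be told apart. The 4 wing pouch genes vg, nub, rn and Dll were all called lower in msl-1 mutants, where their summed level was 278.6 to 286.5 CPM against 842 and 872 CPM in heterozygotes. In mle mutants 3 of the 4 were lower (294 to 564 CPM against 644 and 896 CPM), in roX1 roX2 mutants Dll alone was (583 to 741 CPM), and in msl-2 mutants none was by edgeR (704 to 834 CPM against 712.5 to 804 CPM). The 5 genes of tissue damage and developmental delay (Ilp8, Xrp1, Irbp18, upd1 and puc) were all called higher in msl-1 mutants, with a summed level of 2576 to 2798 CPM against 639.8 and 684 CPM. In mle and roX1 roX2 mutants 4 of the 5 were higher, and in msl-2 mutants 2 (Xrp1 and Irbp18). With all 21 libraries 3 pouch genes were called lower in msl-1 and 1 in mle mutants, Dll lost its call in roX1 roX2 mutants (adjusted p = 0.170), and 1 damage gene was called higher in msl-2 and 3 in roX1 roX2 mutants. Of the 6 genes of hinge and notum, 4 were lower with the msl-1 mutation (hth, eyg, zfh2 and pnr), 2 with the msl-2 mutation (hth and tsh), and hth alone in the other mutants. With all 21 libraries eyg and pnr were called lower in msl-1 mutants, and no gene of that list in the other 3. In msl-1 mutants 3 of 5 neuron and glia genes were lower as well (59.8 to 79.1 CPM summed, against 123 and 227.7 CPM), and 3 of 5 leg and haltere genes (Dll, B-H1 and dac). Of all genes 12.7% were called lower there. With all 21 libraries 4 of 5 were lower in each of these 2 lists, where 38.2% of all genes were called in either direction. Dll is counted among the pouch genes too, and Ubx of the leg and haltere genes was not called.

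Summed levels of genes of larval muscle and fat body were higher in most msl-2 mutant libraries. The 5 larval muscle genes tested, 1 of them called (sls), summed to 479 to 1178 CPM in msl-2 mutants and 118 to 173 CPM in their heterozygotes. The 6 fat body genes, 1 of them called (Lsp2, but not with all 21 libraries, adjusted p = 0.0911), summed to 199, 4738, 22.9 and 347 CPM in msl-2 mutant replicates 1 to 4 and to 19.5 to 60.8 CPM in the heterozygotes. mats, called lower in msl-2 mutants, kept its call without the library at 4738 CPM, as in each other leave-one-out fit. Leaving out 1 library does not remove the larval muscle genes, which summed to at least 479 CPM in all 4 msl-2 mutant libraries. The part of such tissue in the change of mats was not tested.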

How the data were processed

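Libraries were made with a stranded poly-A kit, per the labels' protocols. Raw counts of reads for each gene were deposited by the authors without normalisation. The submitters' processing notes list the tools STAR (2.6.1b), Subread (1.6.1) with featureCounts, and DESeq2 (1.18.1), with dm6 and BDGP6 as builds, and the strand setting of the counting is not given in the sources used here. Genes were matched by FlyBase identifier to an annotation with dm6 coordinates (17252 of 17558 genes; the other 306 held 5.53% of counts). Counts were fitted with edgeR 4.0.16 in R 4.3.3 (robust quasi-likelihood, 1 mean per group, filterByExpr, TMM factors from genes of chromosomes 2 and 3), with Benjamini-Hochberg adjustment over all genes tested. Standard errors are the size of the log2 fold change divided by the square root of edgeR's F, CPM use the same factors, and levels per kb use the summed exon length. The scripts were tested on simulated data. Alternatives were all 21 libraries, scaling, filters, a replicate block, only the groups compared, DESeq2 1.42.0, other controls for roX1 roX2 mutants and leaving out each library.

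The genes, the gene lists and the choice to leave out 1 library were made with earlier results of these data known. The rule for names was all members, and up to 4 called genes with the smallest adjusted p from each other list per comparison, and genes behind a small count were named beside it. Genes with a pattern like a member's were to be named for members called in at least 2 comparisons, which none was. The symbols ds, ap, wg, wupA, btl and bantam had no matched row. No sequence is given, since no genome or sequence table was used here.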

Additional observations from a re-analysis of the deposited data

Results flagged for a closer look

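Among the 4 msl-2 mutant libraries, replicate 4 stood apart for mats at 73.84 CPM, its gap to the next library being 0.890 of the range of the group, above Dixon's critical value for 4 samples. It was the one outlier among 9 tests, 1 for each gene in these same 4 libraries, and chance marks about 1 in 20 such tests. The other groups hold fewer libraries and were not examined. The mutant effect on fj was higher in the msl-1 than in the msl-2 stock by 0.82 on the log2 scale, and that on hpo by 0.89, each by the test of the difference itself.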

How the results depend on the processing

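Of 954 alternative values for single genes, 918 kept their side of the threshold, 23 lost a call and 13 gained one, and no called value changed sign. Most of the 918 are of results not called in the analysis reported, and the called ones were less steady. In msl-1 mutants ex lost its call in 6 of 13 alternatives, hpo in 5 of 13 and fj in 1 of 13. In msl-2 mutants mats lost it in 1 of 15. The difference of msl-1 from msl-2 lost its call in 4 of 15 for hpo and 6 of 15 for fj. The count of the 9 genes called in msl-2 mutants, 1 in the analysis reported, was 0 with all 21 libraries, 2 with RLE size factors, 2 with DESeq2 and 1 to 2 when single libraries were left out. In msl-1 mutants it was 3, and 0 to 2 when single libraries were left out. In mle mutants it was 0 in every alternative run. In roX1 roX2 mutants it was 0, and became 2 against msl-2 heterozygotes alone, 1 with TMM on all genes, 1 with RLE, 1 with DESeq2, and 0 to 1 with single libraries left out. The count of genes whose effects differ between msl-1 and msl-2 was 2, became 1 with all 21 libraries, and was 0 to 3 with single libraries left out. The replicate block left 1 gene called with the msl-2 mutation, 2 with msl-1, 0 with mle, 0 with roX1 roX2, and 1 between the msl-1 and msl-2 effects. Under the replicate block hpo in msl-1 mutants lost its call (0.54, adjusted p = 0.0888), as did its difference from msl-2 (0.74, adjusted p = 0.106). Same-numbered libraries deviated together with correlations of -0.21 to 0.172, so the numbers were not taken as pairs. ex in msl-1 mutants also lost its call with no filter on low counts (adjusted p = 0.0519) and with a minimum of 1 CPM in 3 libraries (adjusted p = 0.0520), and wts gained one with only the compared groups in the fit (-0.63, adjusted p = 0.0255). The causes were not tested. Scaling moved the median of all genes by under 0.1 on the log2 scale. Depth limits ex and wts most, with counts from 38 and 40 per library.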
